A study of Mus musculus with 24 samples.

Results

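The guanylate-binding proteins (GBPs) and the immunity-related GTPases (IRGs) are the interferon-inducible GTPases with which mouse cells attack microbes inside them. From them 10 genes, chosen by symbol, were followed in every library: the GBP genes Gbp2, Gbp3, Gbp5, Gbp6 and Gbp7, and the IRG genes Irgm1, Irgm2, Igtp, Iigp1 and Tgtp2. They are 10 of the 45706 genes in the count files.

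The RNA came from mouse embryonic fibroblasts (MEFs), a culture of connective tissue cells taken from male C57BL/6 embryos of day 13.5 after head and inner organs had been removed, and kept for 7 days in culture. The cells were either wild type or homozygous for a mutation of the glucocorticoid receptor (GR) labelled GR Zn/Zn. Each genotype received 4 treatments, with 3 libraries per group and 24 libraries in all. The vehicle group received ethanol, the Dex group 1 uM dexamethasone (a synthetic glucocorticoid) for 16 h, the LPS group vehicle followed by bacterial lipopolysaccharide at 100 ng/ul for 6 h, and the Dex with LPS group both agents. These comparisons ask how the GTPase genes answered LPS, how Dex altered that answer, and whether either depended on the receptor's genotype.

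GBPs are large GTPases, several of which carry a lipid anchor and assemble on bacterial surfaces and on the vacuoles of bacteria and protozoa. IRGs fall into a regulatory type, Irgm1, Irgm2 and Igtp (also called Irgm3), which guards the cell's own membranes, and an effector type, to which Iigp1 and Tgtp2 belong, which loads onto and breaks pathogen vacuoles. Both families are transcribed in response to interferons through STAT and IRF factors, and LPS reaches them mainly by way of interferon made after Toll-like receptor signalling, while GR bound to a glucocorticoid dampens many inflammatory genes.

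Of the 24 libraries, 21 held 18.9 to 25.5 M counted reads (M, 1e+06 reads) and 3 with later library numbers 43.9 to 58.0 M. The later 3 were wild type Dex with LPS replicate 3, GR Zn/Zn vehicle replicate 1 and GR Zn/Zn LPS replicate 2. These 3, wild type Dex with LPS replicate 1 and GR Zn/Zn Dex with LPS replicate 2 stood apart: replicate pairs that included one of the 5 had a chi-square per degree of freedom of 8.70 to 61.1, and the other pairs 1.56 to 5.05. Summed liver markers varied by library from 0.172 to 177 CPM, also within groups. Of the genes that mark fibroblasts, all 8 were read in every group, with a summed level of 16333 to 27369 CPM (reads per 1e+06 counted reads, after library scaling). The labels do not say whether the 3 libraries of a group came from different embryos or dishes. Each p-value therefore measures only the spread among these libraries, which may be technical, and an effect of genotype cannot be told apart from one of the particular embryos used.

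The GBP genes other than Gbp6 lie side by side on chromosome 3 (mm10, plus strand): Gbp5 at chr3:142493978-142522344, Gbp7 at chr3:142530342-142550149, Gbp3 at chr3:142560026-142573209 and Gbp2 at chr3:142620602-142638008. Gbp6 lies on the minus strand at chr5:105270702-105293698. The IRG genes Irgm1 (chr11:48861968-48871683) and Tgtp2 (chr11:49057194-49064206) are on the minus strand of chromosome 11, and Igtp (chr11:58199556-58207591) and Irgm2 (chr11:58199618-58222782) on its plus strand. Iigp1 lies on the plus strand at chr18:60376027-60392634. All 10 are annotated as protein-coding. In the order Gbp2, Gbp3, Gbp5, Gbp6, Gbp7, Irgm1, Irgm2, Igtp, Iigp1 and Tgtp2 their Ensembl identifiers are ENSMUSG00000028270, ENSMUSG00000028268, ENSMUSG00000105504, ENSMUSG00000104713, ENSMUSG00000040253, ENSMUSG00000046879, ENSMUSG00000069874, ENSMUSG00000078853, ENSMUSG00000054072 and ENSMUSG00000078921.

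Some members share sequence with near copies, and their counts are uncertain to that extent. Of all 50-base windows in the transcripts of Tgtp2, 86.6% also occur in another gene, nearly all of them in Tgtp1 (85.8%). For Gbp6 the share was 70.7%, made up chiefly of Gm43302 (65.0%) and Gbp10 (46.0%). Gm43302 also overlaps 29.0% of the exon bases of Gbp6 on the same strand and itself collected at most 1 read per group. The shares were 12.7% for Gbp7, 11.8% for Igtp and 7.83% for Irgm2, the last pair sharing 162 exon bases on the same strand. Gbp3, Gbp2, Iigp1, Gbp5 and Irgm1 shared between 0.379 and 3.75% of their windows. Reads on the opposite strand came to 0.0144 to 0.987% of each member's reads, so few reads on these loci came from the other strand.

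The promoters are shown because all members rose with LPS in both genotypes and fell with Dex under LPS in wild type, and because both families are known to be transcribed from interferon response elements. RefSeq promoter entries (GRCm38.p6) were found for 8 of the 10 members, all but Gbp6 and Iigp1. The 250 bases before each annotated start were searched on both strands for 4 motifs. The interferon-stimulated response element (ISRE), GAAA repeated after any 2 bases, occurred in all 8 members and in 2.98% of the 32851 mouse promoters in the table. Of the members' 9 entries the second one of Gbp3 held no ISRE match. The gamma-activated site (GAS), TTCNNNGAA, occurred in 5 (Gbp5, Gbp7, Irgm2, Igtp and Tgtp2) and in 7.02% of all promoters. The NF-kB motif occurred in Gbp5 alone, and in 7.25% of all promoters. The GR palindrome, GNACA and TGTNC on either side of any 3 bases, occurred in none of the 8 and in 0.387% of all promoters, which says only that these letters are absent from these windows. The 60 bases around the ISRE match of each gene are printed 5′ to 3′ on the gene's strand, with ISRE and GAS matches in capitals.
Gbp5, chr3:142496744-142496803: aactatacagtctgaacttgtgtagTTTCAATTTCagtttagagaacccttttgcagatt
Gbp7, chr3:142530258-142530317: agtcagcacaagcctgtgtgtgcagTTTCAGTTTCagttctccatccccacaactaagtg
Gbp3, chr3:142559977-142560036: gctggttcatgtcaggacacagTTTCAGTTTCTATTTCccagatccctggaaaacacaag
Gbp2, chr3:142620579-142620638: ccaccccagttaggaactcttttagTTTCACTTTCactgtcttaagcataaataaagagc
Irgm1, chr11:48871421-48871480: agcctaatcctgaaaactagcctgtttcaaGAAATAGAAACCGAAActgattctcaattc
Tgtp2, chr11:49064248-49064307: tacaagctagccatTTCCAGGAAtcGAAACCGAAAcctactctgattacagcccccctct
Igtp, chr11:58199496-58199555: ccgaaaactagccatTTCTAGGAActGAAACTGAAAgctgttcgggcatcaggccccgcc
Irgm2, chr11:58214888-58214947: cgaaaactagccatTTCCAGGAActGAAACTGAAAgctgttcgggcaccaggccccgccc

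Gbp3 and Irgm1 each carried a pair of overlapping ISRE matches, seen as 1 longer run of capitals. In Tgtp2, Igtp and Irgm2 a GAS match stood directly before the ISRE match. The longest run of identical bases between any 2 of the 8 promoters was 55 bases, between Igtp and Irgm2, followed by 17 bases between Tgtp2 and Irgm2. All other pairs shared at most 13 bases in a row. The RefSeq promoter windows of Gbp5, Irgm1 and Irgm2, and the second one of Gbp3, lie inside the mm10 gene models, which start further upstream. The window of Gbp2 ends at chr3:142620662 and the first one of Gbp3 at chr3:142560043, so both reach partly into their gene models. The ISRE match of Gbp2, 59 bases before the RefSeq start, lies within that part. The gene model of Irgm2, though not its promoter window, overlaps Igtp.

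**Figure D1:**
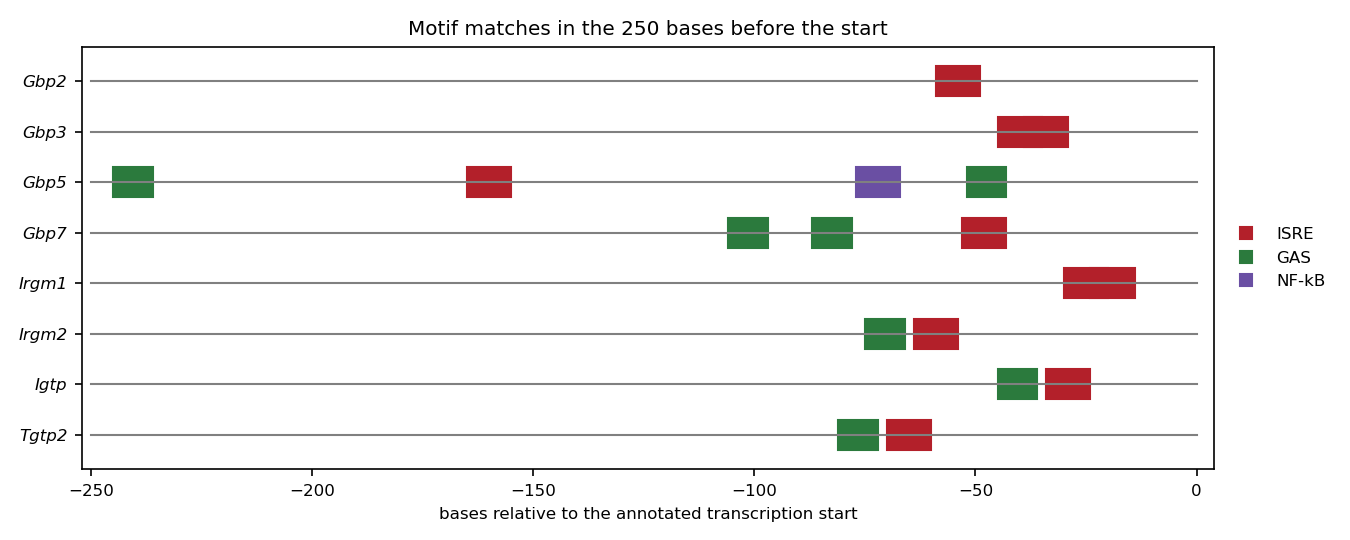
Motif matches in the 250 bases before the annotated start of the 8 members with a RefSeq promoter entry; the x axis gives bases relative to the start, and boxes mark matches to ISRE (red), GAS (green) and NF-kB (violet) on either strand. ISRE matches begin between 24 and 70 bases before the start in 7 members and at 165 bases in Gbp5.

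LPS raised every member in wild type cells. By edgeR's quasi-likelihood test over 15221 genes, with Benjamini-Hochberg adjustment and a call at an adjusted p below 0.05, 10 of 10 members were called higher, against 14% of all genes. Their median log2 fold change was 5.27 (1.67 to 8.12), and that of all genes tested was -0.01. Gbp5, Gbp6 and Tgtp2 entered the test only through their LPS libraries, since none of the 12 libraries without LPS reached the count filter for them, so their calls carry less weight than those of the other 7.

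Before LPS the members differed widely in level. Irgm1 was the one clearly expressed at rest, with 93.9, 95.4 and 90.8 CPM in the wild type vehicle libraries. Gbp2 had 4.65, 3.67 and 4.26 CPM there and Irgm2 4.27, 3.23 and 4.18 CPM. The others were lower still: Gbp7 lay at 1.98 ± 0.204 CPM (SD, n = 3), Gbp3 at 1.01 ± 0.136 CPM, Igtp at 0.979 ± 0.120 CPM, Iigp1 at 0.576 ± 0.229 CPM and Tgtp2 at 0.311 ± 0.0661 CPM. Gbp5 and Gbp6 had 1 read each over all 3 vehicle libraries.

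With LPS, Gbp2, which coats bacteria and parasite vacuoles, reached 178, 157 and 197 CPM in wild type, 42.3-fold above vehicle (log2 5.38 ± 0.15, SE; adjusted p = 1.52e-17, edgeR). Gbp3 reached 47.7, 45.8 and 50.3 CPM (47.6-fold) and Gbp7 39.8, 40.1 and 41.0 CPM (20.3-fold). Gbp5, a GBP known for its part in inflammasome activation, went from near 0 to 25.4, 22.3 and 29.6 CPM, a ratio of 1769 with a 95% counting interval of 311 to 68562. Gbp6 went to 7.95, 7.72 and 10.3 CPM, a ratio of 596 with an interval of 104 to 23065. None of these libraries overlapped the vehicle libraries.

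Among the IRG genes Irgm1 rose the least in fold, to 296, 305 and 292 CPM (3.19-fold; log2 1.67 ± 0.09, adjusted p = 3.19e-12, edgeR), from the highest resting level of the 10. Irgm2 reached 72.2, 69.8 and 68.6 CPM (18-fold) and Igtp 38.9, 35.2 and 40.0 CPM (38.9-fold). Of the effector type, Iigp1 reached 45.3, 35.9 and 41.7 CPM (71.1-fold) and Tgtp2 12.6, 10.5 and 12.3 CPM (37.9-fold). The groups did not overlap for any of the 10 members, against 26.5% of all genes that were higher without overlap.

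Per length of transcript (TPM, transcripts per 1e+06, computed from the exon length of each gene), the order of levels in wild type LPS libraries was Gbp2 at 259 ± 28.6 TPM (SD, n = 3), Irgm1 at 188 ± 5.04, Irgm2 at 69.8 ± 1.86, Igtp at 69.0 ± 4.37, Gbp3 at 53.8 ± 2.43, Gbp7 at 26.3 ± 0.412, Iigp1 at 25.8 ± 2.90, Tgtp2 at 14.7 ± 1.37, Gbp5 at 14.2 ± 2.0 and Gbp6 at 5.34 ± 0.876. Neighbours in this order whose libraries overlapped were Irgm2 and Igtp, Gbp7 and Iigp1, and Tgtp2 and Gbp5. With vehicle the order had been Irgm1 at 63.4 TPM, Gbp2 at 6.58, Irgm2 at 4.16, Igtp at 1.91, Gbp7 at 1.39 and Gbp3 at 1.21, with the other 4 members below 0.515 TPM in every library. By this measure Gbp2 passed Irgm1 with LPS, while in CPM Irgm1 stayed higher, at 298 against 177 CPM. The length used joins all annotated exons, 5810 bases for Irgm1 and 2516 for Gbp2, and need not match the transcripts expressed. TPM used the full exon length, though 86.6% of the windows of Tgtp2 and 70.7% of those of Gbp6 are shared with other genes. Multimapping reads, and reads ambiguous between overlapping genes, were not counted. The TPM of Tgtp2 and Gbp6 may therefore be too low and their places are uncertain. To a lesser extent this holds for Gbp7, Igtp and Irgm2. Of their exon bases 11.35, 8.01 and 4.39% overlap another gene on the same strand, which for Gbp7 is the pseudogene Gm43802. In all, the 10 genes took 0.0109% of counted reads with vehicle, 0.0738% with LPS and 0.0248% with Dex and LPS in wild type. In GR Zn/Zn these shares were 0.00562, 0.0952 and 0.125%.

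GR Zn/Zn cells answered LPS with the same 10 genes, all called higher against 19% of all genes, with the same limit for Gbp5, Gbp6 and Tgtp2. The median log2 fold change was 5.47 (2.81 to 8.15), and over all genes tested it was 0.00. Gbp2 rose 74.3-fold to 259 ± 26.3 CPM (SD, n = 3), Gbp5 402-fold to 47.9 ± 8.29 CPM, Iigp1 73.5-fold to 65.8 ± 12.5 CPM and Irgm1 7.09-fold to 272 ± 7.05 CPM. Without GR Zn/Zn vehicle replicate 2, Gbp5 gave 799.6-fold, and without replicate 1, Iigp1 gave 126-fold. No LPS library of any member overlapped its vehicle libraries, against 24.4% of all genes higher without overlap.

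**Figure D2:**
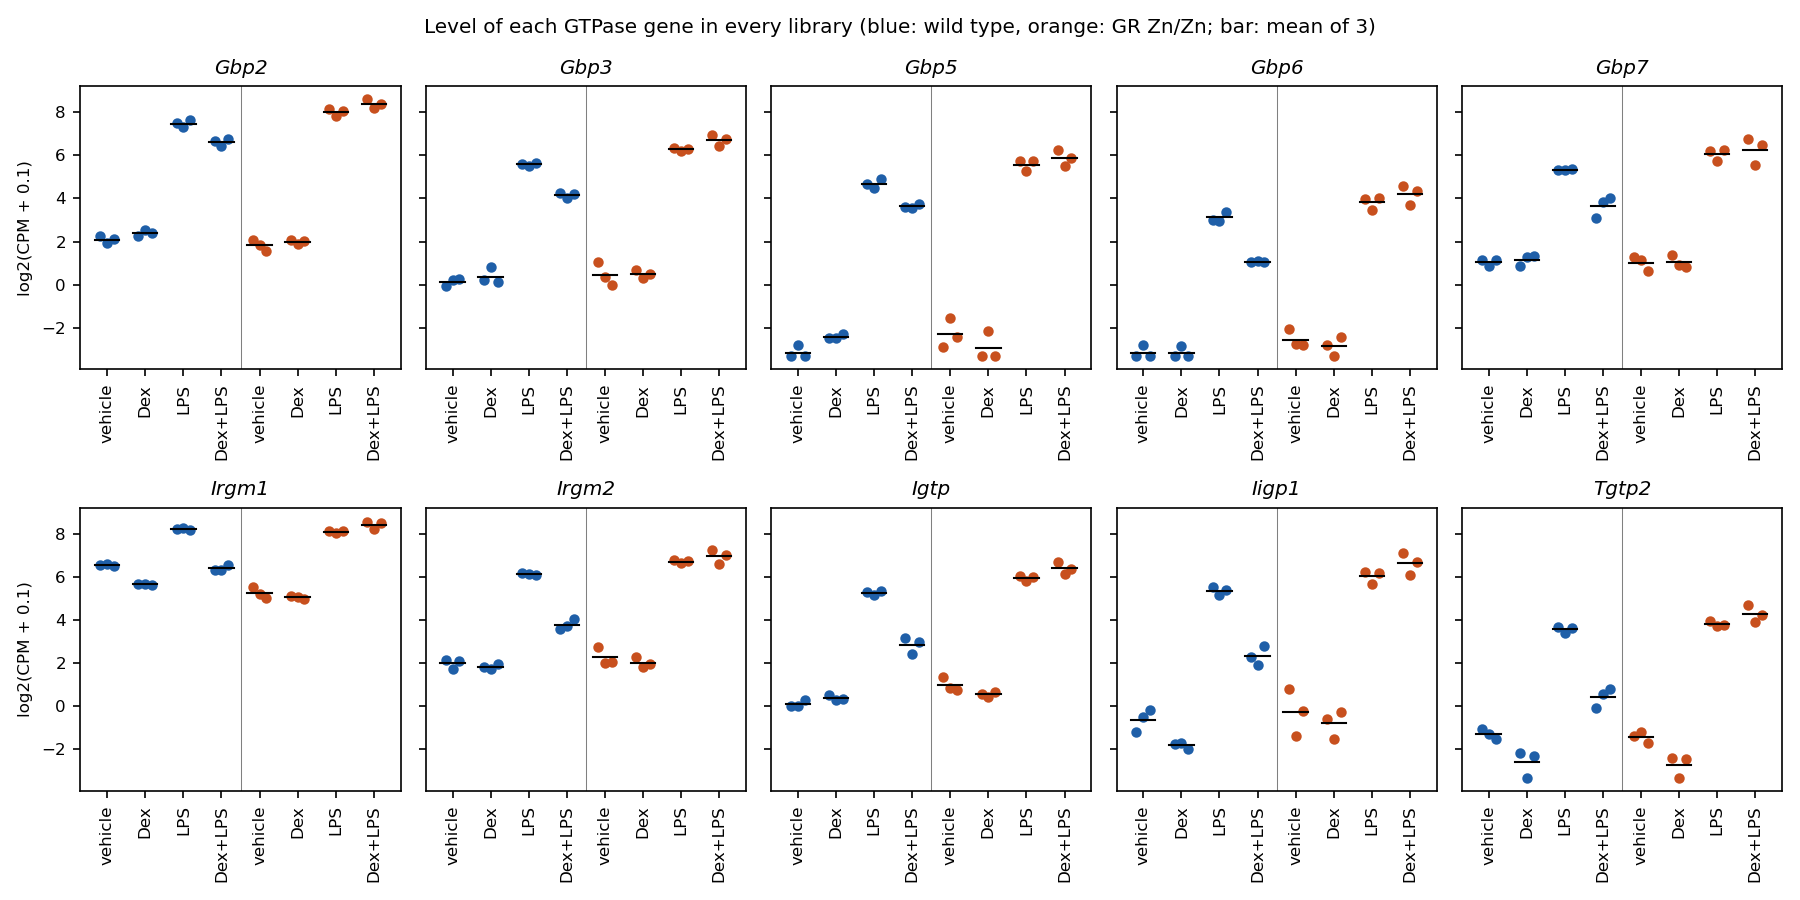
Level of each of the 10 genes in all 24 libraries, as log2(CPM + 0.1); each point is a library, bars are means of 3, with wild type in blue on the left and GR Zn/Zn in orange on the right of each panel. In wild type the Dex with LPS points lie below the LPS points in all 10 panels, and in GR Zn/Zn they do not.

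Dex alone lowered 1 of the 10 genes in wild type cells, where 5.24% of all genes were called lower. This was Irgm1, with 50.6, 51.5 and 48.7 CPM after Dex and 93.9, 95.4 and 90.8 CPM with vehicle, so that the groups did not overlap (log2 -0.89 ± 0.10, adjusted p = 3.69e-07, edgeR). The other 9 were not called. Of the 10 members 5 had groups that did not overlap, near the 40.9% of all genes: Irgm1, Iigp1 and Tgtp2 lower with Dex, and Gbp2 and Gbp5 higher. Gbp5 and Tgtp2 reached the count filter in 0 of the 12 libraries without LPS. They were tested here only through their LPS libraries, and a few reads set their values. Iigp1 had 0.201, 0.206 and 0.154 CPM with Dex and 0.332, 0.611 and 0.786 CPM with vehicle (log2 -1.31 ± 0.95, adjusted p = 0.379, edgeR). Gbp2 had 4.70, 5.74 and 5.13 CPM against 4.65, 3.67 and 4.26 CPM, and Gbp5 had 6 reads against 1. Tgtp2 had 5 reads over the Dex libraries and 21 over the vehicle libraries (log2 -1.36 ± 0.65, adjusted p = 0.0874, edgeR), and DESeq2 called it lower (log2 -2.09, adjusted p = 0.0405). In the authors' deposited table Irgm1 (log2 -0.90) and Tgtp2 (log2 -2.09, adjusted p = 0.0357) were both lower. Summed leukocyte markers were at 83.9 to 85.8 CPM with vehicle and 65.0 to 73.4 CPM with Dex in these libraries, with 4 of 9 called lower and 1 higher, and their part in these values was not tested.

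In GR Zn/Zn cells Dex alone changed none of the 10 by edgeR, and 0% of all genes. At an unadjusted p below 0.05, 3 members and 1109 genes would have passed, and DESeq2 called 3 genes, no member among them. Irgm1 had 34.4, 33.6 and 31.4 CPM with Dex and 46.1, 36.6 and 32.5 CPM with vehicle, which overlap. The effect of Dex on Irgm1 differed between the genotypes by 0.67 ± 0.14 on the log2 scale (adjusted p = 0.0027, edgeR), the only member called in that difference, in which 2.6% of all genes were called higher.

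Dex lowered the LPS level of every member in wild type cells. All 10 were called lower, against 10.6% of all genes, with a median log2 fold change of -1.94 (-3.06 to -0.84) and a highest adjusted p of 0.000107 (edgeR). The median over all genes tested was 0.01. For every member the 3 libraries with Dex and LPS lay below the 3 with LPS, as they did for 16.8% of all genes. In the authors' deposited table all 10 were lower as well, by log2 values of -3.12 to -0.88.

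The GBP genes kept 22.9 to 55.6% of their wild type LPS level. Gbp2 kept the most, 55.6%, at 102, 85.7 and 108 CPM (log2 -0.84 ± 0.11, SE; adjusted p = 4.94e-06, edgeR). Gbp5 kept 47.6%, at 12.1, 11.6 and 13.1 CPM, and Gbp3 37.2%, at 18.9, 16.0 and 18.6 CPM. Gbp7 kept 32.1%, with 8.40 CPM in replicate 1, a library that stood apart, and 14.2 and 16.3 CPM in the others. Gbp6 kept 22.9%, at 1.96, 2.02 and 1.98 CPM.

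The IRG genes kept 10.9 to 28.4%. Tgtp2, of the effector type, kept 10.9% of its LPS level, at 0.845, 1.39 and 1.61 CPM (log2 -3.06 ± 0.22, adjusted p = 3.17e-10, edgeR). Iigp1 kept 12.4%, at 4.80, 3.72 and 6.72 CPM (log2 -2.93 ± 0.27, adjusted p = 5.19e-08, edgeR). The regulatory genes Igtp and Irgm2 kept 19.1% and 19.4%, at 7.28 ± 1.79 and 13.6 ± 2.25 CPM (SD, n = 3). Irgm1 kept 28.4%, at 80.4, 80.2 and 93.2 CPM, and was the only member whose Dex with LPS libraries overlapped its vehicle libraries, with a ratio of 0.906 between the group means. All other members stayed above vehicle, by 3.5-fold for Irgm2 to 23.5-fold for Gbp2, leaving out Gbp5 and Gbp6, which had 1 vehicle read each. Whether the families differed in the share kept was not tested.

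Markers of macrophages and other leukocytes were present in all groups. Their summed level was 74.1 to 74.8 CPM in wild type LPS libraries and 73.0 to 78.4 CPM with Dex and LPS, and of the 9 markers 1 (Fcgr3) was called higher and none lower. In such bulk samples fewer cells of a type and less RNA per cell cannot be told apart.

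In GR Zn/Zn cells Dex lowered no member under LPS. All 10 had log2 fold changes above 0, from 0.28 to 0.64, and none was called (adjusted p = 0.289 to 0.959, edgeR), where 0.00657% of all genes, a single gene, were called higher. At an unadjusted p below 0.05, 7 members and 889 genes passed. Gbp2 had 392, 295 and 331 CPM with Dex and LPS and 279, 229 and 268 CPM with LPS, which do not overlap. Neither did Gbp3, at 124, 86.3 and 108 CPM with both agents against 80.8, 72.8 and 78.4 CPM with LPS, Irgm1, at 377, 296 and 359 against 277, 264 and 275 CPM, or Igtp, at 102, 70.4 and 82.9 against 66.2, 55.9 and 63.4 CPM. These 4 genes had fold changes of 1.26 to 1.38 between the group means, and 5.14% of all genes were higher without overlap in this comparison.

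The other 6 members overlapped. Iigp1 had 136, 67.4 and 103 CPM with both agents and 73.6, 51.3 and 72.5 CPM with LPS (log2 0.64 ± 0.22, adjusted p = 0.636, edgeR). Tgtp2 had 26.0, 14.9 and 18.4 CPM against 15.6, 13 and 13.3 CPM. Irgm2 had 152, 96.5 and 131 CPM against 109, 98.1 and 105 CPM. In each of these genes replicate 2 of the Dex with LPS group fell among or below the LPS libraries, and the other 2 lay above all of them. Gbp5 had 75.2, 44.7 and 57.7 CPM with both agents against 52.6, 38.3 and 52.7 CPM with LPS. Gbp6 had 23.7, 12.8 and 20.4 CPM against 15.4, 10.9 and 16.2 CPM, and Gbp7 109, 46.2 and 88.9 CPM against 73.2, 52.6 and 76.4 CPM. The same held for these 3 GBP genes.

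Libraries that stood apart bear on these values. GR Zn/Zn LPS replicate 2 and Dex with LPS replicate 2 were each the lowest of their group for all 10 members. Without Dex with LPS replicate 2, Gbp3 (log2 0.59), Irgm1 (0.43) and Igtp (0.58) were called higher, with 0.175% of all genes. Without the 5 libraries that stood apart, 8 of 10 were called higher, all but Gbp2 and Gbp5, with log2 values of 0.41 to 0.72, and 0.977% of all genes. That fit held 2 libraries in each of these groups and shared its estimate of spread over all groups. The 5 libraries were picked by their spread among replicates in these same data. Leaving them out lowers the estimated spread, so the calls of that fit carry less weight.

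**Figure D3:**
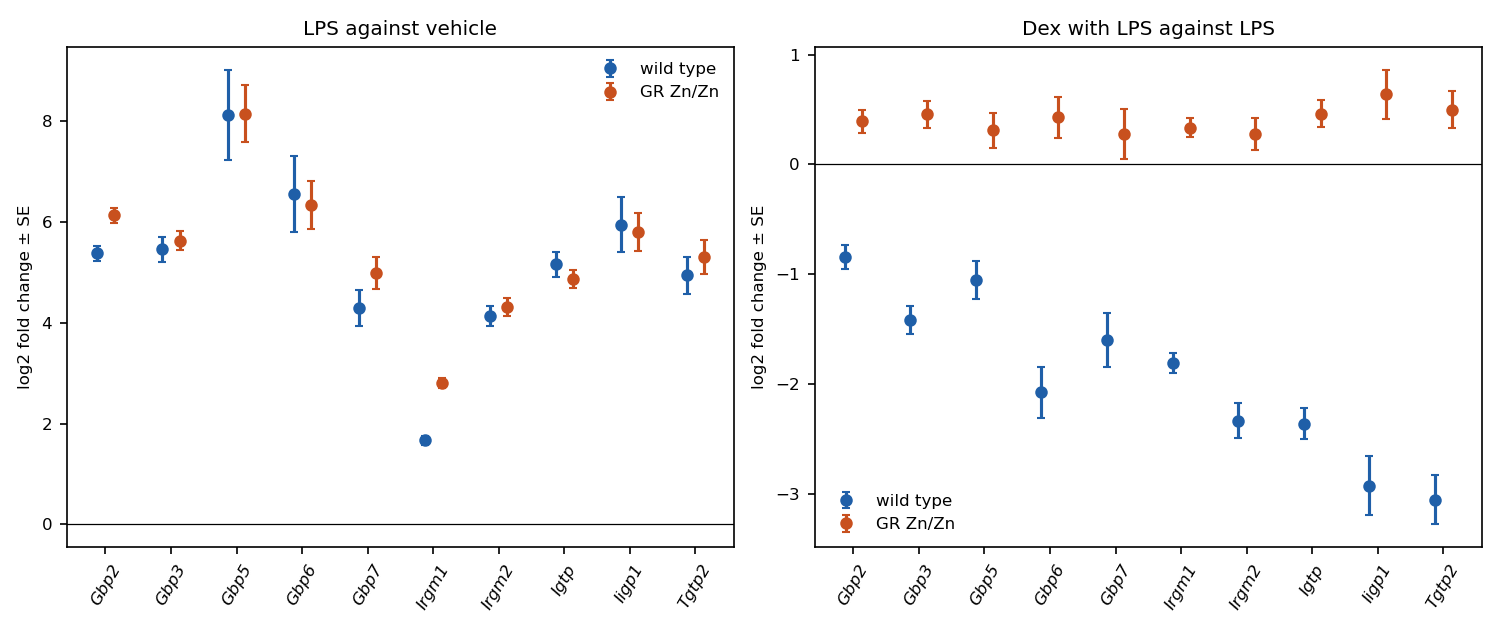
Log2 fold change ± SE (edgeR) of the 10 genes for LPS against vehicle (left) and for Dex with LPS against LPS (right), in wild type (blue) and GR Zn/Zn (orange). On the right all wild type values lie between -3.06 and -0.84 and all GR Zn/Zn values between 0.28 and 0.64.

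The difference between the genotypes in the effect of Dex under LPS was itself called for all 10 members, against 5.36% of all genes called in that direction. It had a median of 2.33 on the log2 scale (1.24 to 3.57; over all genes tested -0.01) and a highest adjusted p of 0.000456 (edgeR). The effector genes Iigp1 (3.57 ± 0.35, SE) and Tgtp2 (3.56 ± 0.28) had the highest values, followed by Igtp (2.82 ± 0.19), Irgm2 (2.62 ± 0.21), Gbp6 (2.51 ± 0.30) and Irgm1 (2.15 ± 0.13). The remaining GBP genes had 1.88 ± 0.33 for Gbp7, 1.87 ± 0.18 for Gbp3, 1.37 ± 0.24 for Gbp5 and 1.24 ± 0.15 for Gbp2. Wild type and GR Zn/Zn effects of Dex under LPS had opposite signs for each of the 10, though those in GR Zn/Zn were not called.

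Levels also differed between the genotypes without Dex. With LPS, 8 of 10 members were called higher in GR Zn/Zn cells, against 12.6% of all genes, with ratios from 1.46 for Gbp2 to 1.86 for Gbp5. Gbp5 had 52.6, 38.3 and 52.7 CPM in GR Zn/Zn and 25.4, 22.3 and 29.6 CPM in wild type (log2 0.89 ± 0.17, adjusted p = 0.000345, edgeR). Gbp3 had 80.8, 72.8 and 78.4 CPM against 47.7, 45.8 and 50.3 CPM (log2 0.69 ± 0.12, adjusted p = 0.000232). Igtp had 66.2, 55.9 and 63.4 CPM against 38.9, 35.2 and 40.0 CPM. For all 3 genes each GR Zn/Zn library lay above each wild type library.

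Irgm1 and Tgtp2 were not called in that comparison. Irgm1 had 277, 264 and 275 CPM in GR Zn/Zn and 296, 305 and 292 CPM in wild type (log2 -0.13 ± 0.09, adjusted p = 0.328, edgeR), and was called lower when only the compared groups were fitted (adjusted p = 0.00461) and without the 5 libraries that stood apart (adjusted p = 0.00895). Tgtp2 had 15.6, 13 and 13.3 CPM against 12.6, 10.5 and 12.3 CPM. The calls for Gbp6 (log2 0.70, adjusted p = 0.0107), Gbp7 (0.74, 0.0227) and Iigp1 (0.68, 0.0367) were lost without any one of wild type LPS replicates 1 and 2 and GR Zn/Zn LPS replicates 1 and 3, leaving 5. Those for Gbp7 and Iigp1 were also lost without wild type LPS replicate 3. Iigp1 lost its call as well by DESeq2 (adjusted p = 0.238), and by edgeR without a filter on low counts (0.107) or with only the compared groups fitted (0.0569). Gbp7 was not called without that filter (adjusted p = 0.072, edgeR).

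Several marker lists differed between the genotypes with LPS too. The summed level of leukocyte markers was 151 to 161 CPM in GR Zn/Zn LPS libraries and 74.1 to 74.8 CPM in wild type. None of the 9 was at 0, and 8 were called higher, all but Cx3cr1, against 12.6% of all genes. Of 8 fibroblast markers 7 were called higher, with sums of 22580 to 24612 CPM in GR Zn/Zn and 17746 to 18433 CPM in wild type. Endothelial markers went the other way, with a sum of 7.26 to 8.16 CPM in GR Zn/Zn and 21.2 to 21.8 CPM in wild type LPS libraries. Epithelial markers summed to 3.04 to 3.17 CPM in GR Zn/Zn and 8.86 to 9.09 CPM in wild type LPS libraries. Of the 2 epithelial markers tested 1 was called higher and 1 lower. The part of any marker list in the GTPase levels was not tested. The 6 lymphocyte markers summed to at most 0.177 CPM in any library.

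With vehicle, Irgm1 was lower in GR Zn/Zn cells, at 46.1, 36.6 and 32.5 CPM against 93.9, 95.4 and 90.8 CPM in wild type (log2 -1.27 ± 0.10, adjusted p = 1.55e-09, edgeR), and Igtp was higher, at 2.44, 1.71 and 1.60 CPM against 0.902, 0.917 and 1.12 CPM (log2 0.99 ± 0.28, adjusted p = 0.00764). These were the 2 members called, 1 of 10 in each direction, near the 8.69% of all genes called higher and 10.1% called lower. The groups did not overlap for either gene. Igtp lost its call without GR Zn/Zn vehicle replicate 1, the highest of its group (log2 0.71, adjusted p = 0.137). Summed leukocyte markers stood at 189 to 200 CPM in GR Zn/Zn and 83.9 to 85.8 CPM in wild type vehicle libraries. Of 9 leukocyte markers 8, and of 8 fibroblast markers 5, were called higher, against 8.69% of all genes. Of 4 endothelial markers tested 2, and of 2 epithelial ones 1, were called lower, against 10.1%. The part of these markers in the GTPase levels was not tested.

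Irgm1 was the one member called for a difference in LPS response between the genotypes, of 1.14 ± 0.13 on the log2 scale (adjusted p = 6.28e-05, edgeR), where 0.348% of all genes were called higher. Its vehicle level differed between the genotypes by 0.411-fold, and its LPS level by 0.915-fold. For the other 9 the difference in response was not called.

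Across the 8 groups the order of levels was much alike from member to member. GR Zn/Zn Dex with LPS was highest for all 10, followed by GR Zn/Zn LPS, wild type LPS and wild type Dex with LPS for 9 of them. Irgm1 instead had wild type LPS ahead of GR Zn/Zn LPS, and wild type vehicle ahead of wild type Dex with LPS. The 2 highest groups overlapped for Gbp5, Gbp6, Gbp7, Irgm2, Iigp1 and Tgtp2, and for Irgm1, where the second was wild type LPS.

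Most other genes of both families and related interferon-induced large GTPases changed in the same directions as the members. Of 21 listed, 17 were tested. With LPS, 15 were called higher in wild type (median log2 4.09), against 14% of all genes, and 16 in GR Zn/Zn (4.82), against 19%. All 17 were called lower with Dex under LPS in wild type (-2.29), against 10.6%. None was called for Dex under LPS in GR Zn/Zn (0.52), and 16 were called higher in the genotype difference, against 5.36%. As with Gbp5, Gbp6 and Tgtp2, a gene near 0 without LPS can enter the test only through its LPS libraries. Mx2, annotated as a polymorphic pseudogene, fell from 13.9 ± 0.941 CPM (SD, n = 3) to 1.41 ± 0.0636 CPM with Dex under LPS in wild type (log2 -3.22 ± 0.14, SE, adjusted p = 3.78e-14, edgeR). In the same comparison Mx1 fell by 2.50, and the IRG genes Gm4841, F830016B08Rik and Ifi47 by 3.17, 3.37 and 1.68 on the log2 scale. Tgtp1, the near copy of Tgtp2, had 11 CPM with LPS and 1.63 CPM with Dex and LPS in wild type. In GR Zn/Zn it had 8.74 and 12.8 CPM. Gbp10, which shares sequence with Gbp6, stayed below 1 CPM on average in all groups.

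Genes that relay interferon signals had smaller median changes than the members. Of 21 tested interferon receptor, JAK-STAT and IRF genes, 17 were called higher with LPS in wild type (median log2 0.97), against 14% of all genes. In GR Zn/Zn 19 were higher, against 19% of all genes, and 1 lower. With Dex under LPS in wild type 16 were called lower, against 10.6% of all genes, and 1 higher (-0.42). None was called in GR Zn/Zn, and 13 were called higher in the genotype difference, against 5.36%. With Dex under LPS in wild type Stat2 fell by 1.32, Irf7 by 1.93, Nlrc5, which drives MHC class I genes, by 1.04, Batf2 by 1.33, and Usp18, an inhibitor of interferon receptor signalling, by 2.59 on the log2 scale. In GR Zn/Zn cells with LPS, 17 of the 21 were called higher than in wild type, against 12.6% of all genes, and 1 lower. The interferon gene Ifnb1 had 2 reads over the wild type LPS libraries, 2 with Dex and LPS, 9 and 11 in GR Zn/Zn and 0 in every other group, and was not tested.

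Genes that act with the GTPases divided. Of 9 inflammasome and pyroptosis genes 7 were called higher with LPS in wild type, against 14% of all genes, and 2 lower with Dex under LPS, against 10.6%, namely Il1b (log2 -2.61 ± 0.12) and Nlrp3 (-0.44 ± 0.09). Casp4, the sensor of cytosolic LPS, rose by 3.16 ± 0.13 with LPS and had -0.20 ± 0.09 with Dex (adjusted p = 0.143, edgeR). Casp1 rose by 2.21 ± 0.39. Only Il1b was called in the genotype difference (2.67 ± 0.16). Of 13 genes for the autophagy conjugation machinery and cargo factors that place GTPases on vacuoles, 4 were called higher with LPS in wild type, against 14% of all genes. With Dex under LPS 3 were called lower, against 10.6%, and 2 higher. Trim21, a cytosolic antibody receptor, rose by 2.68 ± 0.13 and fell by 1.63 with Dex, and the cargo receptor Sqstm1 rose by 1.09 ± 0.08 and fell by 0.54. Of 6 enzymes that attach and trim the lipid anchors, 1 (Icmt) was called higher with LPS (0.17 ± 0.05) and lower with Dex under LPS (-0.33 ± 0.05), shares near those of all genes.

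**Figure D4:**
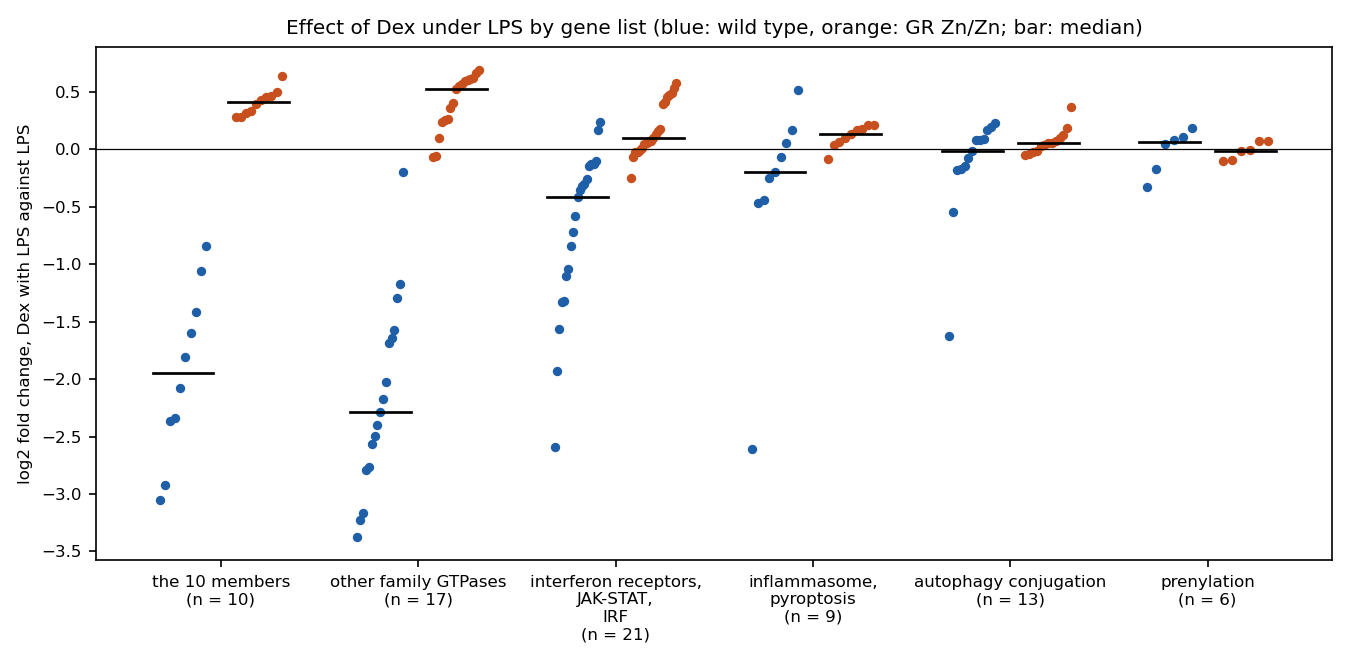
Log2 fold change of Dex with LPS against LPS (edgeR) for the tested genes of 6 lists, in wild type (blue) and GR Zn/Zn (orange); each point is a gene and bars are medians. The 10 members and the 17 other family GTPases have medians of -1.94 and -2.29 in wild type, and the interferon signalling genes -0.42.

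The 5 tested genes whose log2 CPM group means were most like the members' mean profile over the 8 groups were Cmpk2, Usp18, Trim30c, Heatr9 and Cxcl10, with Pearson correlations of 0.998 to 0.999. This describes 8 group means that share libraries and treatments, and 58 of 15211 other genes exceeded 0.99. Heatr9 had 0 reads in every group without LPS and a mean of at most 0.624 CPM in any group. Trim30c had at most 1 read in a group without LPS and a mean of at most 1.61 CPM. The likeness of Heatr9 and Trim30c therefore rests on few reads. Cmpk2 had 55.0 ± 3.97 CPM with LPS and 10.0 ± 1.11 CPM with Dex and LPS in wild type, and 82.4 ± 9.50 and 118 ± 27.2 CPM in GR Zn/Zn (SD, n = 3). The members' own correlations with that mean profile ran from 0.938 for Irgm1 to 0.998 for Gbp7.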

How the data were processed

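The authors deposited STAR read counts per gene for 24 libraries (STAR 2.4.2 and 2.4.2a, mm10, per the submitters' processing notes). The fourth column, the strand that held nearly all reads of the stranded kit (500 ng RNA), was used. Entries naming no gene were left out (3.10 to 4.72% of reads in no feature, 3.74 to 5.79% multimapping, 2.92 to 5.58% unmapped, 1.18 to 1.41% ambiguous). The authors also deposited 4 tables of their own comparisons, with log2 fold changes, p-values and a mean normalized signal per gene; 96 per-sample columns in them were not used.

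CPM used TMM-scaled library sizes; TPM divided counts by each gene's exon length first. Tests used edgeR 4.0.16 (R 4.3.3): TMM, filterByExpr by group (15221 genes), 1 coefficient per group over all 24 libraries, robust quasi-likelihood fits, prior count 2, Benjamini-Hochberg adjustment, calls below 0.05. For 1 to 3 vehicle reads an exact Poisson 95% interval of the ratio is given, covering counting error only. The script was tested on simulated data. A count of 0 allows 3 reads, 0.0530 to 0.163 CPM. DESeq2 1.42.0 and the alternatives of the closing section were also run. The members, gene lists and alternatives were chosen with earlier results of these data known. All 10 members were named; from each list, up to 4 genes called with the largest LPS change in wild type and up to 4 with the lowest adjusted p in the genotype difference of the Dex effect under LPS could be named, beside near copies and 5 genes of like profile. Gene models came from the GENCODE annotation of mm10, and promoters from RefSeq.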

Additional observations from a re-analysis of the deposited data

Results flagged for a closer look

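The effect of Dex under LPS differed between the genotypes for all 10 members, by the interaction term of the edgeR fit. The difference (GR Zn/Zn minus wild type, log2) was 1.24 for Gbp2, 1.87 for Gbp3, 1.37 for Gbp5, 2.51 for Gbp6, 1.88 for Gbp7, 2.15 for Irgm1, 2.62 for Irgm2, 2.82 for Igtp, 3.57 for Iigp1 and 3.56 for Tgtp2. Irgm1 also differed between the genotypes in its response to LPS (1.14) and in its response to Dex alone (0.67), by the same kind of test. Its level with vehicle was 38.4 ± 6.96 CPM in GR Zn/Zn and 93.4 ± 2.35 CPM in wild type (SD, n = 3).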

How the results depend on the processing

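Some counts of members called were the same under every alternative run: LPS in each genotype (10 and 10), Dex in GR Zn/Zn (0) and the genotype difference of the Dex effect (1). Those for Dex under LPS in wild type (10) and its genotype difference (10) were the same under every alternative except 1, which is left aside. That is the fit without the 5 separate libraries, which held only replicate 2 of wild type Dex with LPS and so no spread within that group. The alternatives were DESeq2, no filter on low counts, the compared groups only, later library numbers as a covariate, leaving out the 3 later or the 5 separate libraries, each replicate left out, and the replicate block. Dex alone in wild type lowered 2 members by DESeq2. For Dex under LPS in GR Zn/Zn the count was 8 without the 5 libraries, and 0 to 3 with a replicate left out. The genotype comparison with vehicle gave 1 without the 3 later libraries and 1 to 2 with a replicate left out, and that with LPS gave 5 to 8 with a replicate left out and 6 to 9 otherwise. The genotype difference of the LPS effect gave 2 members by DESeq2 (adding Gbp2, log2 0.77) and 2 without the 5 libraries (adding Gbp7, log2 1.04). The cause of these changes was not tested. Of 714 values for 42 results never called, 65 had the other sign. With the replicate block the counts were 1 for Dex under LPS in GR Zn/Zn (Igtp, adjusted p = 0.0394, edgeR) and 2 for the genotype difference of the LPS effect (adding Gbp2, adjusted p = 0.0309); it changed no other count of members. Replicate numbers did not pair the samples: correlations of deviations ran from -0.338 to 0.348 over 24 pairs, and in 0 of 8 comparisons did every sample correlate best with its own number. Counts of all genes that moved by over 1.5 times were: LPS in wild type 4020, and 6847 with the compared groups only or 6676 without the 5 libraries; Dex in wild type 2003, and 4659 or 4330; Dex in GR Zn/Zn 0, and 3 by DESeq2, 1 without the later 3 and 5 without the 5 libraries; Dex under LPS in wild type 3198, and 1544 with the compared groups only or 5052 without the later 3; Dex under LPS in GR Zn/Zn 1, and 31 by DESeq2, 6 without a filter, 0 with the compared groups only or without the later 3, 12 with the block, 2 with the covariate, 160 without the 5 libraries and 0 to 27 with a replicate left out; genotype with vehicle 2861, and 4620 without the 5 libraries. For the genotype differences they were 82 for LPS (149 by DESeq2, 146 with the compared groups only, 134 with the covariate, 405 without the 5 libraries, 34 to 79 with a replicate left out), 1064 for Dex (1659 with the compared groups only, 2191 without the 5 libraries) and 1581 for Dex under LPS (1042 with the compared groups only). The last count also moved without the 5 libraries, a fit with 1 wild type Dex with LPS library. Depth limits Gbp5, Gbp6 and Tgtp2 without LPS, where single reads set their levels.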
